A study of Mus musculus with 4 samples.

Results

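IRF2 is a transcription factor of the interferon regulatory factor (IRF) family. Factors of this family bind DNA at repeats of the letters GAAA, and genes switched on by interferon carry such repeats close to their transcription starts. IRF2 is known both for restraining interferon responses and for helping to keep the genes of MHC class I antigen presentation active. Where IRF2 sits in intestinal stem cells was asked by chromatin immunoprecipitation followed by sequencing (ChIP-seq). The regions described here are those close to the ends of protein-coding genes, where promoters lie.

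The peak intervals of both IRF2 libraries were pooled, and intervals that overlapped by 1 bp or more were joined, which gave 562 regions. A region counted as a gene-end region when its midpoint lay 5000 bp or less from the start or the end of a protein-coding gene in the RefSeq table for mm10/GRCm38. This held for 251 of the 562 regions (44.7%). Of the 251, 25 were found in both libraries, 117 in replicate 1 alone and 109 in replicate 2 alone. No summit score and no sequence entered this choice. The last regions inside the limit lay 4914 bp from Tacc1 (replicate 2, summit score 15) and 4956 bp from Ubqln4 (replicate 1, 18). The first outside it lay 5029 bp from Bcl11a (replicate 1, 19) and 5099 bp from Gltp (replicate 2, 12).

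Both libraries came from Lgr5-expressing stem cells of the mouse small intestine, of the strain Lgr5-EGFP-Ires-CreERT2, in which a cassette for green fluorescent protein and an inducible Cre is driven from the Lgr5 locus. Both were precipitated with the same catalogue antibody against IRF2 (Abcam, ab124744). The 2 input samples carry the same strain and tissue labels and were not analysed here. The labels name no age, and they do not say which of the 5 mice of the design text entered which library. The libraries therefore form 1 group of 2, with no untreated or mutant group to set against it. Read depth is unknown, so a region absent from 1 list may still carry signal below that list's calling threshold. The summit score is the authors' own value for a peak, given as a whole number with no unit named, and it is read within each list (median 22.5 in replicate 1 and 14 in replicate 2). Wilson intervals are at 95% and cover counting error only.

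The sequences below are shown first, and they speak for part of the gene-end regions only. A RefSeq promoter window runs from 250 bases before to 50 bases after an annotated start, for 300 bases in all. The IRF motif searched was GAAANNGAAA, on both strands, where N is any base. On the other strand it reads as its reverse complement, with runs of TTTC. Of the 251 gene-end regions, 92 overlapped a promoter window, and 21 of the 106 windows overlapped held the motif. Stretches run 5′ to 3′ on the gene's own strand, from the GRCm38.p6 build of RefSeq, with the motif in capitals. The promoter windows under the 25 regions of both libraries that held it are these.
Rbck1 (chr2:152332417-152332466, minus strand): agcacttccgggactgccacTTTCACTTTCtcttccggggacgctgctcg
Erap1 (chr13:74639829-74639878, plus strand): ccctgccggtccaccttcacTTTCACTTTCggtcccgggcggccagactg
Tasor2 (chr13:3611086-3611115, minus strand): gcgctttagtTTTCACTTTCtgtcttcgga
Irf2 (chr8:46739495-46739533, plus strand): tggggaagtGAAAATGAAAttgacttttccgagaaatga
Socs1 (chr16:10785584-10785639, minus strand): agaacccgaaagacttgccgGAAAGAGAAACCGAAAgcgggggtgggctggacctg
Xpo6 (chr7:126200625-126200674, minus strand): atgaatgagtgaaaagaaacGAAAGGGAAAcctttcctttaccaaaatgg
Ddx60 (chr8:61928014-61928097, plus strand): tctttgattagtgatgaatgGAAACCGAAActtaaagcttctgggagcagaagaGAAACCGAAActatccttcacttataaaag

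Socs1, a feedback inhibitor of cytokine signalling, holds overlapping copies of the motif in 1 run, and Ddx60, an interferon-induced RNA helicase, holds separate copies. Rbck1, Erap1 and Tasor2 hold it in the TTTC reading.

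For regions of replicate 1 alone, 6 windows with the motif are shown, those under the regions of highest score (H2-T22 and Gm6034 tie with Irgm1 at 28 and are left out).
Ogfr (chr2:180589428-180589456, plus strand): cttcctcctcTTTCACTTTCctttccgcg
Trim26 (chr17:36836966-36837021, plus strand): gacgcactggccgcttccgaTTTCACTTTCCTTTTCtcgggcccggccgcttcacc
Ifih1 (chr2:62646206-62646233, minus strand): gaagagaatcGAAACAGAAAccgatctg
Rbm43 (chr2:51935352-51935407, minus strand): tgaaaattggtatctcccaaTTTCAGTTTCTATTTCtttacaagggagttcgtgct
Ctso (chr3:81932609-81932638, plus strand): gagccaaGAAACCGAAAGAGAAAgcgggcc
Irgm1 (chr11:48871415-48871470, minus strand): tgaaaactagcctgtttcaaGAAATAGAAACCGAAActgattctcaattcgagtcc

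For regions of replicate 2 alone, 1 window held the motif, that of Gpatch2.
Gpatch2 (chr1:187215322-187215371, plus strand): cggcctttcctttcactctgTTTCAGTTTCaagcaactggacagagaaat

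The other windows under replicate 2 regions did not hold it. To show what such a promoter looks like, the 80 bases before the start are given for 4 of the regions scored 18 or more in replicate 2 alone, with each CG dinucleotide (CpG) in capitals. Gm10499, also at 18, covers a window too and is not shown.
Taf3 (chr2:10048610-10048689, minus strand): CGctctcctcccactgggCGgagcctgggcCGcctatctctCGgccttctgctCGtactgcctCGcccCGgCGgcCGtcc
Tuba8 (chr6:121210654-121210733, plus strand): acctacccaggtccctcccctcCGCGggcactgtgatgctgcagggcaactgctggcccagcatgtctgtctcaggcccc
Elp5 (chr11:69981236-69981315, minus strand): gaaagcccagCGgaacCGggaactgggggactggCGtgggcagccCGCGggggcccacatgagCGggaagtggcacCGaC
Gga3 (chr11:115603917-115603996, minus strand): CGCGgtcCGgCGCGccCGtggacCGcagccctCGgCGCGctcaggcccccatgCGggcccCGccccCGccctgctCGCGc

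Promoter windows under regions of both libraries and of replicate 1 alone often held the IRF motif, and those under regions of replicate 2 alone seldom did. Only the windows were read, and a region could overlap one while its summit lay outside it. In replicate 2 alone this was so at Taf3 (summit 193 bp downstream of a start) and Elp5 (333 bp upstream). In replicate 1 alone it was so at Rnf213 (253 bp downstream) and H2-M3 (614 bp downstream). The shares describe the windows, not the sequence under such summits. The motif was in 7 of 18 windows under regions of both libraries (38.9%, interval 20.3 to 61.4), in 13 of 39 under replicate 1 alone (33.3%, 20.6 to 49.0) and in 1 of 49 under replicate 2 alone (2.04%, 0.361 to 10.7). Among all 21263 windows of protein-coding genes the share was 3.35%. The windows of replicate 2 alone therefore stood near the level of promoters at large, and those of the other classes above it.

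Between replicate 1 alone and replicate 2 alone, the difference of 31.3 percentage points passed a two-sided Fisher's exact test (adjusted p = 0.000225 over a family of 7 tests). The test compares regions of these 2 libraries and no condition. H2-T22 and Gm6034, neighbours on opposite strands, share 1 motif, so regions were also counted. A window with the motif was then overlapped by 12 of 34 regions of replicate 1 alone and 1 of 42 of replicate 2 alone (Fisher's exact test, adjusted p = 0.000549). An overlapped window can hold its motif outside the region itself, as at Rbm43 and Gpatch2. With the motif required inside the region, the windows numbered 12 of 39 and 0 of 49 (Fisher's exact test, adjusted p = 6.66e-05), and the part of a window that a region covers differs from window to window. With the longer form GAAANNGAAAC the windows numbered 7 of 39 and 1 of 49, and the difference no longer passed (Fisher's exact test, adjusted p = 0.0690; 0.823% of all windows hold this form). With the looser form AANNGAAA, which is contained in the IRF motif and is in 21.8% of all windows, they numbered 23 of 39 and 9 of 49 (Fisher's exact test, adjusted p = 0.000432), beside 10 of 18 in regions of both libraries.

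Windows under regions of both libraries were compared with those under regions of 1 library (7 of 18 against 14 of 88), and the difference of 22.98 points did not pass (Fisher's exact test, adjusted p = 0.0892). With the longer form it was 3 of 18 against 8 of 88 (adjusted p = 0.459), and with the motif inside the region 7 of 18 against 12 of 88, which passed (adjusted p = 0.0427), all by Fisher's exact test. Gene-end regions of both libraries were wider (median 1079 bp against 525 and 556 bp), so requiring the motif inside the region can favour them. With chromosome 17 left out, the counts were 7 of 13 against 10 of 74 (Fisher's exact test, adjusted p = 0.00654). All 5 windows of shared regions on that chromosome lack the motif, so leaving it out raises the shared share by construction. That setting and the motif inside the region were chosen after seeing the data. Chromosome 17 carries the MHC, and the windows of Tap1, Psmb9, Psmb8, Tapbp and H2-Q4 did not hold the motif. Of these 5, the window of H2-Q4 held the looser form. That a window lacks these letters says nothing of the factor.

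**Figure D1:**
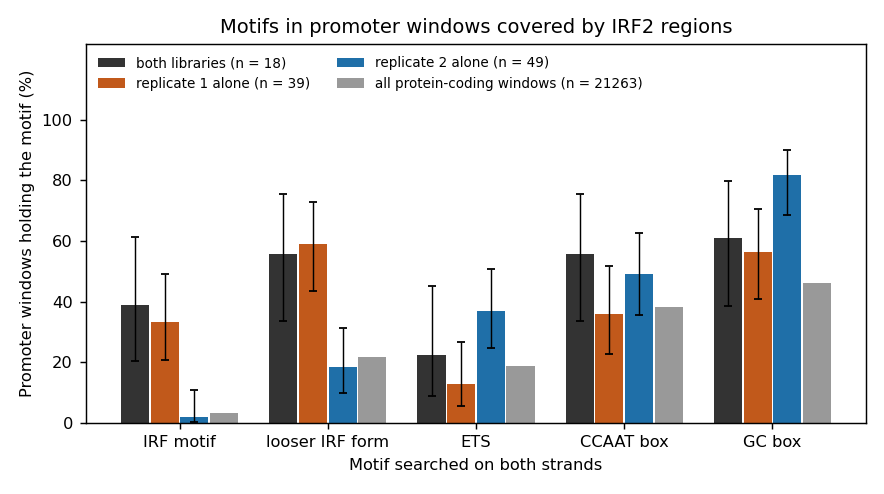
Share of promoter windows (percent, vertical axis) that hold each motif, for windows under regions of both libraries, of replicate 1 alone and of replicate 2 alone, beside all protein-coding windows; bars are shares and lines are 95% Wilson intervals. The IRF motif stands at 38.9% and 33.3% in the first classes and at 2.04% in replicate 2 alone, while the GC box stands highest in replicate 2 alone.

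The CpG content of the windows moved with the class. The median window held 15 CpG under regions of both libraries and under those of replicate 1 alone, 25 under those of replicate 2 alone, and 13 among all windows. Of the replicate 2 windows, 42 of 49 (85.7%) held more than the overall median, against 23 of 39 (59.0%) in replicate 1 alone and 11 of 18 (61.1%) in both. The IRF motif is rarer in CpG-rich promoters, with 1.96% of all windows above the median against 4.69% of the rest. Within windows above the median, the motif was in 5 of 23 of replicate 1 alone and in 1 of 42 of replicate 2 alone (Fisher's exact test, adjusted p = 0.0428), and in 5 of 11 of both libraries.

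The GC box (GGGCGG), a site for Sp factors, was in 40 of 49 windows of replicate 2 alone (81.6%, interval 68.6 to 90.0), in 22 of 39 of replicate 1 alone (56.4%) and in 11 of 18 of both (61.1%), against 46.2% of all windows. The ETS core (CCGGAA) was in 18 of 49 (36.7%), 5 of 39 (12.8%) and 4 of 18 (22.2%), against 18.7%. The CCAAT box, bound by NF-Y, was in 24 of 49 (49.0%), 14 of 39 (35.9%) and 10 of 18 (55.6%), against 38.2%. None of these 3 was tested between classes. The CpG content moved with them, and its part in them was not tested.

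Distances from motif to summit were read only in windows of 300 bases that a region overlapped. A motif far from the summit could thus seldom be seen, and no other motif was measured for comparison. Across the 7 windows of shared regions, the nearest motif centre was a median of 21 bp from the replicate 1 summit (range 6 to 349) and 85 bp from the replicate 2 summit (74 to 253). At Xpo6, which encodes an exportin for actin, the distances were 6 and 74 bp, at Socs1 17 and 81 bp, and at Erap1 18 and 82 bp. At Tasor2 they were 349 and 253 bp, the farthest of the shared set. In replicate 1 alone the median over 13 windows was 111 bp (42 to 561), with 10 of 13 within 150 bp and Flt3l, a cytokine gene, the closest. The Gpatch2 motif was 301 bp from its replicate 2 summit. Most summits lay on a 16 bp grid (371 of 380 and 226 of 238), which limits these distances.

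**Figure D2:**
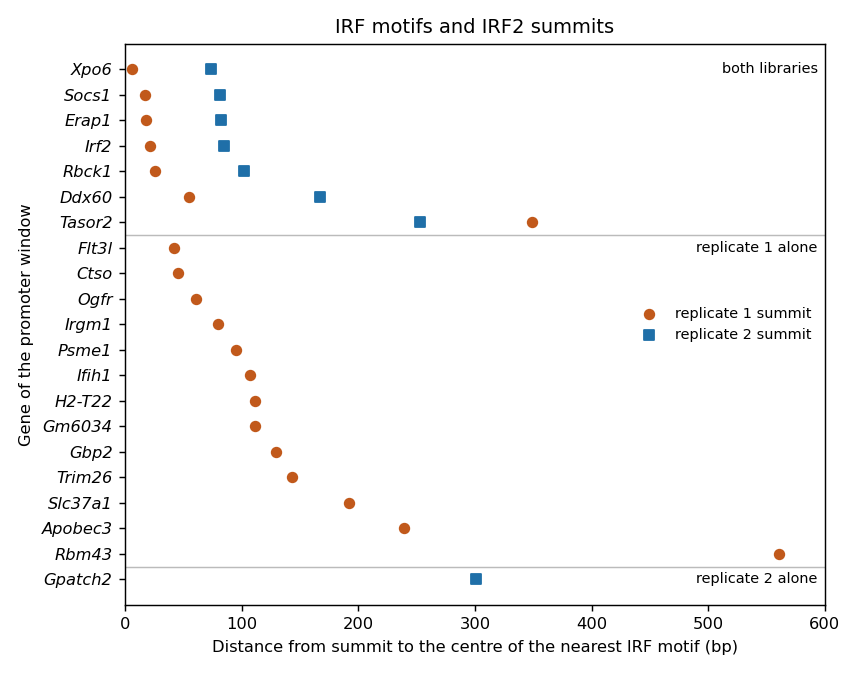
Distance in bp (horizontal axis) from the summit of each library to the centre of the nearest IRF motif, for each promoter window that holds one; circles are replicate 1 and squares replicate 2. Among shared regions 6 of 7 replicate 1 summits lie within 150 bp of a motif, and in 6 of 7 the replicate 1 summit is the nearer one.

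Genes of interferon response, ubiquitin signalling and antigen processing were among the highest-scored of the 25 regions of both libraries. Xpo6 (76 in replicate 1) and Tasor2 (27 in replicate 2), described further below, also stood high. Parp12, an interferon-inducible ADP-ribosyltransferase, had summit scores of 131 in replicate 1 and 48 in replicate 2, the highest in each library among gene-end regions. Rbck1, a subunit of the linear ubiquitin chain assembly complex, had 88 and 31, and its midpoint lay 408 bp inside the gene. Nmi, an interferon-inducible partner of STAT proteins, had 84 and 23. These were the 3 highest replicate 1 scores in the set, and replicate 2 placed Tapbp, Tasor2 and Erap1 above Nmi.

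Antigen presentation genes formed 1 group of the shared regions, spread through the order of scores. Erap1, the aminopeptidase that trims peptides for class I molecules, had 82 and 25, and Tapbp (tapasin, which loads those peptides) had 71 and 29. Tap2, a subunit of the peptide transporter, had 58 and 19, and Psmb8, a subunit of the immunoproteasome, had 45 and 21. The region at the neighbouring starts of Tap1 and Psmb9, another transporter subunit and another immunoproteasome subunit, had 41 and 19. Tapbpl, a tapasin homologue, had 40 and 15, and H2-Q4, a class I heavy chain gene, had 39 and 19. The 7 regions ran from 39 to 82 in the list of replicate 1 and from 15 to 29 in that of replicate 2.

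Regulators and antiviral genes made a further group. Nub1, which lowers the ubiquitin-like protein NEDD8, had 74 and 21. Plgrkt, a plasminogen receptor gene whose start neighbours that of the checkpoint ligand gene Cd274, had 65 and 17, and Socs1 had 58 and 17. The region near Xpot, a tRNA export gene, and Tbk1, a kinase that activates IRF3, had 43 and 20. Its nearest gene end was the end of Xpot, 276 bp away, while the promoter window it covered was that of Tbk1. Mov10, an RNA helicase, had 39 and 20, Ddx60 37 and 12, and Irf2 itself 37 and 21.

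The remaining shared regions lay at genes with other roles or farther from a gene end. Xpo6 had 76 and 16, and Polr2g, a subunit of RNA polymerase II, had 65 and 13. Intu, a ciliogenesis gene, had 64 and 14 at 4633 bp, Trim30c 57 and 15 at 3923 bp, Tasor2 47 and 27 at 2104 bp, and Seh1l, a nuclear pore gene, 42 and 12 at 4593 bp. These distances run to the outer end of the gene, and another annotated start can lie nearer. At Tasor2 the summits lay 356 bp (replicate 1) and 260 bp (replicate 2) from an annotated start. Alx4, a homeobox gene, had 27 and 13 at 3580 bp. Zfp703, a zinc finger gene, had 17 and 20 at 2004 bp. It ranked low in replicate 1 (127.5 of 142 gene-end regions, ties averaged) and high in replicate 2 (18 of 134). Its summits lay 678 bp apart, the largest gap of the 25, whereas the median gap was 80 bp and 23 of 25 pairs lay within 150 bp. The order of the scores ran alike in part (Spearman rho 0.44 across the 25 regions, and 0.51 across the 28 shared regions away from gene ends). These points share their libraries, and the coefficient is a description.

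**Figure D3:**
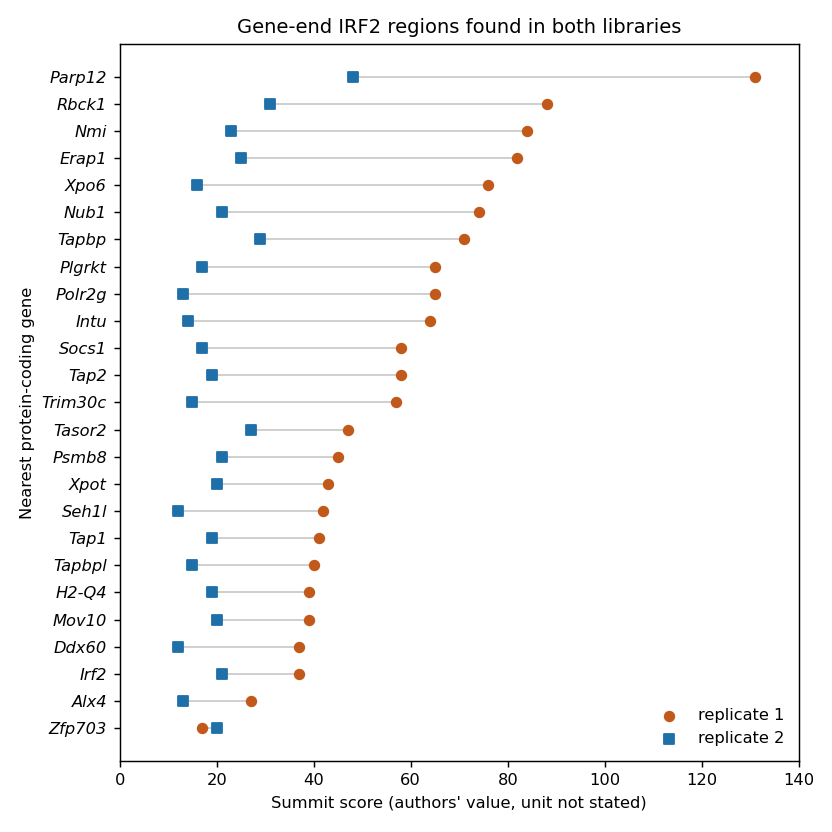
Summit score (authors' value, horizontal axis) in replicate 1 (circles) and replicate 2 (squares) for the 25 gene-end regions of both libraries, by nearest gene. Parp12 stands highest within each list, at 131 and 48, and Zfp703 is lowest of the 25 in replicate 1, at 17; the lists differ in scale, so the gap between a circle and its square is no measure of change.

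Regions of replicate 1 alone had summit scores of 14 to 58 with a median of 21, below the median of 57 of the shared regions. That difference was not tested. The highest were 58 at Aspg, an asparaginase gene whose end lies 2843 bp away, 46 at Cmtr1, which methylates the mRNA cap, and 44 at each of Dtx3l, Ogfr and Slc17a8. Dtx3l is a ubiquitin ligase that works with its neighbour Parp9, and Ogfr encodes the opioid growth factor receptor. Psme2, a subunit of the PA28 proteasome activator, had 39 in a region that also lies near the start of Rnf31, the catalytic subunit of the linear ubiquitin chain complex. Trim26 and Tbrg1 had 38, Usf1 (a helix-loop-helix factor) and Gm52481 had 35, and Rnf213 and the class I gene H2-M3 had 33. A score of 33 was reached by 3 regions, the third being Herc6.

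Regions of replicate 2 alone had summit scores of 10 to 26 with a median of 14. High scores were 26 at Scrt2, a neural zinc finger repressor gene, and 23 at Taf3, a subunit of the general factor TFIID. Btbd11 and Sinhcaf, a member of the Sin3 deacetylase complex, had 22, and Arid1a, a chromatin remodeller, and Tubb3, a neuronal tubulin, had 21. Cacna1g, a calcium channel gene, had 19. A score of 18 was tied among 8 regions, 4 of which the naming rule takes: Elp5, Mrps7, Fam120a and Hoxc5.

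Among gene-end regions with a known strand, the nearer end of the nearest gene was mostly its start. A strand could be had from the promoter table for the nearest gene of 196 of the 251 regions, and the nearest end was the start in 167 of those (85.2%, interval 79.6 to 89.5). It was the start in 18 of 19 regions of both libraries, in 80 of 96 of replicate 1 alone and in 69 of 81 of replicate 2 alone. Within 1000 bp the shares were 15 of 16, 52 of 53 and 58 of 65. From 1001 to 5000 bp they were 3 of 3, 28 of 43 and 11 of 16, so the gene's far end accounted for more of the distant regions. Cdkn1b, an inhibitor of the cell cycle, and Mcm6, a replicative helicase subunit, had replicate 1 regions nearest their far ends. These counts say which outer end was the nearer one, not that a summit lay at an annotated start. Of the summits with a distance to an annotated start, 35 of 119 in replicate 1 lay within 250 bp of one. In replicate 2 it was 42 of 105.

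More summits lay downstream of an annotated start than upstream of it, which was not tested. Of the regions with a replicate 1 summit within 1000 bp of an annotated start, it was downstream in 12 of 17 shared regions (70.6%, interval 46.9 to 86.7). In replicate 1 alone it was downstream in 44 of 57 (77.2%, 64.8 to 86.2). Replicate 2 summits were downstream in 12 of 17 shared regions (46.9 to 86.7) and in 51 of 63 regions of replicate 2 alone (69.6 to 88.8). The midpoint lay inside the nearest gene for 201 of 251 regions (80.1%).

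The distances differed in spread between the classes. The median distance from midpoint to gene end was 355 bp in both libraries, 778 bp in replicate 1 alone and 502 bp in replicate 2 alone. From 1001 to 5000 bp lay 6 of 25 shared regions (24%, interval 11.5 to 43.4), 49 of 117 of replicate 1 alone (41.9%, 33.3 to 50.9) and 24 of 109 of replicate 2 alone (22.02%, 15.3 to 30.7). Shared regions were the widest, with a median of 1079 bp against 525 and 556 bp, and a joined region spans peaks of both libraries by construction.

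**Figure D4:**
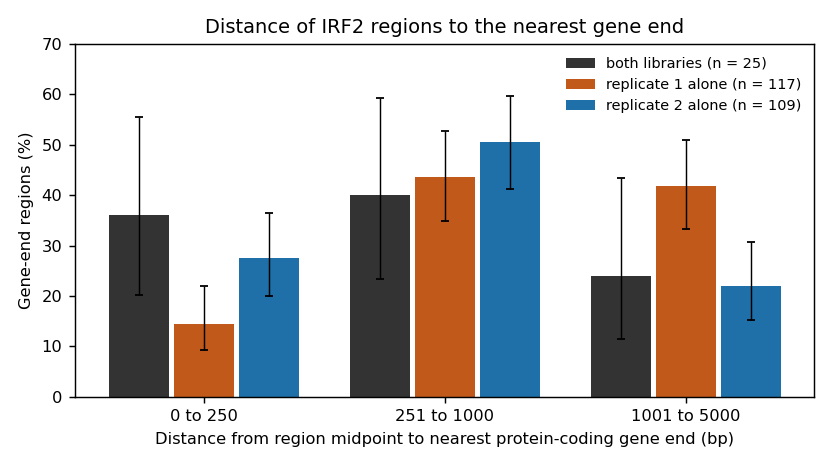
Share of gene-end regions (percent, vertical axis) in each range of distance from midpoint to nearest gene end, by class; bars are shares and lines are 95% Wilson intervals. The range 1001 to 5000 bp holds 41.9% of regions of replicate 1 alone, against 24% of shared regions and 22.02% of those of replicate 2 alone.

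Replicate 2 placed a larger part of its own regions at gene ends than replicate 1. Of the regions in replicate 2 alone, 109 of 184 (59.2%, interval 52.0 to 66.1) were gene-end regions, against 117 of 325 (36.0%, 31.0 to 41.4) in replicate 1 alone, a difference of 23.2 points (two-sided Fisher's exact test, adjusted p = 3.38e-06). Regions of both libraries stood between them, at 25 of 53 (47.2%, 34.4 to 60.3).

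Gene-end regions were not found in both libraries more often than the rest by a margin that could be told apart. The counts were 25 of 251 (9.96%) against 28 of 311 (9.003%), a difference of 0.957 points (Fisher's exact test, adjusted p = 0.772), with intervals of 6.84 to 14.3% and 6.30 to 12.7%. Nor was a difference in summit score detected. In replicate 1, 76 of 142 gene-end regions (53.5%) were above the library's median score, against 113 of 236 others (47.9%; Fisher's exact test, adjusted p = 0.396). In replicate 2 the counts were 66 of 134 (49.3%) and 39 of 103 (37.9%; Fisher's exact test, adjusted p = 0.123). With gene ends taken at 1000 bp or less, the replicate 1 counts were 55 of 87 (63.2%) and 134 of 291 (46.0%), and that difference passed (Fisher's exact test, adjusted p = 0.0163).

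A region was called two-sided when a low-coordinate end of one gene and a high-coordinate end of another both lay within 5000 bp of its midpoint. This held for 65 of 251 regions (25.9%), and 31.2% of all protein-coding gene ends have such a pair around them. It held for 11 of 25 shared regions (44.0%, interval 26.7 to 62.9), 23 of 117 of replicate 1 alone (19.7%, 13.5 to 27.8) and 31 of 109 of replicate 2 alone (28.4%, 20.8 to 37.5). Of two-sided regions 11 of 65 (16.9%) were shared, against 14 of 186 one-sided regions (7.53%), which did not pass (Fisher's exact test, adjusted p = 0.0892). It passed when shared peaks had to cover 50% of each other (11 of 65 against 9 of 186, Fisher's exact test, adjusted p = 0.0130). It passed in none of the other alternatives run, among them outside chromosome 17 (7 of 57 against 13 of 165). The two-sided shared regions of Tapbp, Tap1, Psmb8 and Tap2 all lie on that chromosome.

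Pairs of starts on opposite strands were a smaller class. With strands from the promoter table, 17 regions had the start of a minus-strand gene and the start of a plus-strand gene both within 5000 bp. They were 2 shared regions (Tap1 with Psmb9, and Plgrkt with Cd274), 3 of replicate 1 alone, among them Psme2 with Rnf31 and Gm6034 with H2-T22, and 12 of replicate 2 alone. The replicate 2 pairs included Elp5 with Ctdnep1, Orc1 with Prpf38a, Six4 with Mnat1 and Rubcn with Fyttd1. The share was 11.01% (interval 6.41 to 18.3) of replicate 2 regions and 2.56% (0.876 to 7.27) of replicate 1 regions, and the difference was not tested. Genes without a strand, among them the nearest genes of 55 regions, could not be counted, so these numbers are lower bounds. The share of paired starts over all gene ends was not computed.

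Gene lists were read against the share of all 21887 protein-coding genes with a region within 5000 bp. The lists were chosen with earlier results of these data known, so their shares are a description. Neighbouring genes can count from the same region, as Tap1 and Psmb9 do. That share was 1.43% for any region, 0.164% for a region of both libraries, 0.631% for replicate 1 alone and 0.649% for replicate 2 alone. Of 27 genes of MHC class I antigen presentation, 16 had a region (59.3%), 8 of them in both libraries, 8 in replicate 1 alone and 0 in replicate 2 alone. The replicate 1 genes were the class I heavy chain genes H2-K1 (summit score 32), H2-D1 (30), H2-Q2 (32), H2-M3 (33) and H2-T22, the immunoproteasome subunit Psmb10 (27), and the PA28 subunits Psme1 and Psme2. Class I heavy chain genes resemble each other closely, and the treatment of reads that fit several of them is not stated.

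Of 59 interferon-stimulated genes, 16 had a region (27.1%), with 4 in both libraries (Parp12, Nmi, Mov10 and Ddx60), 11 in replicate 1 alone and 1 in replicate 2 alone. The replicate 1 genes included Ifih1, a sensor of viral RNA (31), Shfl, which blocks viral frameshifting (29), Irgm1, a GTPase of cell-autonomous immunity (28), Gbp2 (21), Apobec3 (20) and the ubiquitin ligase genes Rnf213, Herc6 and Trim26. Cmpk2, a mitochondrial nucleotide kinase, was the replicate 2 gene (13).

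Among 19 IRF and STAT genes, Irf2 had a region in both libraries. Of 33 cytokine signalling and checkpoint genes, 4 had a region (12.1%, against 1.43% of all protein-coding genes). They were Socs1, Cd274 and Tbk1 in both libraries, and Il15ra in replicate 1 alone (24). Of 23 genes of the ubiquitin and ubiquitin-like pathway, 6 had a region (26.1%). They were Rbck1 and Nub1 in both, and Rnf31, Usp25 (19), Herc6 and Psma1 (20) in replicate 1 alone. Herc6 stands in this list and in that of interferon-stimulated genes.

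Of 20 proliferation genes, 2 had a replicate 1 region (10%), namely Mcm6 and Ccnb1, a mitotic cyclin gene, with a score of 16 each. Of 19 Wnt and Notch genes, 1 had one (5.26%), Tcf7l2, an effector of Wnt signalling, 2318 bp from an end (14). Both shares are above the background of 1.43% but rest on 2 genes and 1 gene. None of 19 intestinal stem cell genes, with Lgr5, Olfm4, Ascl2, Smoc2 and Axin2 among them, had a gene-end region, nor did any of 12 enterocyte, 15 secretory lineage, 12 leukocyte or 10 mesenchymal or endothelial genes. A share of 0 in lists this short is near the background and does not set them apart. Peaks are no measure of expression, so these markers do not check the sort.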

How the data were processed

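Fixation lasted 15 min in 1% formaldehyde, and each precipitation took 30 ug of sonicated chromatin, per the labels' protocols. The submitters' processing notes name BWA 0.7.12, MACS and the mm10 build, with no version or threshold for MACS. The deposited tracks give peak intervals as genome positions and, for each summit, a score of unnamed unit. Each library has its own tracks, per the file headers. The deposit of replicate 2 also holds a copy of the 380 replicate 1 intervals, which was counted once. Replicates are numbered in the order of the sample records, so the track headed ISC-rep1 is replicate 2 here.

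Intervals were joined with Python 3.11.15 and pandas 2.3.3. Shares were compared with two-sided Fisher's exact tests in scipy 1.17.1, with Benjamini-Hochberg adjustment over 7 tests. The tests count regions or promoter windows, which are not biological replicates, and the labels do not say that the libraries came from separate animals. RefSeq promoter windows (GRCm38.p6) were found for 17492 of 21887 protein-coding genes (79.9%) and also gave the strands. A window counted as covered at an overlap of 1 bp, which held for 106 windows and 92 of the 251 regions.

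Named are all regions of both libraries, the 12 highest of each library alone, the 2 regions on each side of the distance limit, list members with a region and windows with the motif. Some of these are not reported here. Other genes, named for their far ends, paired starts or printed sequence, were picked after their values were seen. The regions and 12 gene lists were chosen with earlier results of these data known. Joining, distances and the motif search were tested on simulated data.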

Additional observations from a re-analysis of the deposited data

How the results depend on the processing

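The larger share of gene ends in replicate 2 alone kept its direction and passed under each alternative run. The number of gene-end regions was 251, against 133 to 143 with 1 library left out. Regions of both libraries need both lists, so the comparisons of shared regions have no such alternative. For the IRF motif between replicate 1 alone and replicate 2 alone, the difference of 31.3 points was 15.9 with a C required after the motif and no longer passed. It passed under the other alternatives run. The difference between windows of shared and other regions (22.98 points) passed among windows above the median CpG content (36.2 points), outside chromosome 17 (40.3) and with the motif inside the region (25.3). The last of these settings can favour shared regions, which were wider, and leaving out chromosome 17 drops only shared windows without the motif. The difference did not pass with a C after the motif (7.58), with the looser form (19.2) or in the higher-scored 50% of each list (13.1). Nor did it pass at a reciprocal overlap of 50% (20.8) or with regions counted in place of windows (26.6). The 3 settings in which it passed were chosen after seeing the data. So were counting regions in place of windows and the gene-end share with regions joined within 500 bp. Two-sided against one-sided regions differed by 9.40 points in the share found in both libraries, and by 12.1, which passed, at a reciprocal overlap of 50%. It was 4.40 outside chromosome 17, 2.71 within 10000 bp and 1.94 for paired starts, none of which passed. For the replicate 1 score, the difference of 5.64 points was 17.2 within 1000 bp, which passed, -8.79 in the higher-scored 50% of each list and -1.76 for scores in the highest 25%. For the replicate 2 score, the difference of 11.4 points was 0.816, 5.14 and 5.28 in the higher-scored 50%, within 10000 bp and in the highest 25%, and passed in none of these. The share of gene-end against other regions found in both libraries (0.957 points) was -0.547 outside chromosome 17. The causes were not tested. No paired analysis was possible because both libraries belong to 1 group. Read depth is unknown, so what it limits cannot be given as a number.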

Other observations

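Height and motif were set side by side within each library, as a description. In replicate 1, the IRF motif was in 16 of 46 windows under regions above the library's median score (34.8%, interval 22.7 to 49.2) and in 4 of 11 under regions at or below it (36.4%, 15.2 to 64.6). In replicate 2 it was in 6 of 33 windows (18.2%, 8.61 to 34.4) and in 2 of 34 (5.88%, 1.63 to 19.1). Of the 8 replicate 2 windows with the motif, 7 lay under regions that replicate 1 also had, the exception being Gpatch2. These splits were chosen after seeing the data and were not tested.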
